A study of Homo sapiens with 42 samples.

Results

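The regions described here were called open in 3 carcinoma lines and in few samples of 4 lines of other origin, and 229 of 13936 regions met that description. They were chosen by the peak lists of cells given the solvent DMSO: a region is a stretch of at least 100 bp covered by an interval in all 9 DMSO samples of 22RV1, DU4475 and HCT116, with an overlapping interval in at most 2 of the 12 DMSO samples of 92-1, A375, RD and MV411. The lists of cells given FHT-1015 played no role in the choice. The assay was ATAC-seq, in which a transposase cuts DNA that nucleosomes leave free, so that reads pile up at open chromatin. All 42 samples came from cells labelled wild type and treated for 4 h, in 14 groups of 3 biological replicates: each of 7 lines with DMSO as the negative control, or with FHT-1015. This compound inhibits SMARCA4 and its paralog SMARCA2, the motor subunits of BAF chromatin remodellers. The dose was not given in the sources used here. 22RV1 is a prostate adenocarcinoma line, DU4475 an invasive breast carcinoma line and HCT116 a colorectal adenocarcinoma line. Of the others, 92-1 is a uveal melanoma, A375 a melanoma, RD a rhabdomyosarcoma and MV411 an acute myeloid leukaemia line. Each origin rests on 1 line or, for pigment cell tumours, on 92-1 and A375, and nothing beyond the word biological says that replicates were separate cultures, so p-values measure only the spread between these samples.

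Carcinomas arise from epithelia, sheets of cells held together by adherens junctions, tight junctions and desmosomes over a network of keratins. The epithelial state is kept by transcription factors such as those of the GRHL family and by splicing regulators such as the ESRP proteins. It is opposed by ZEB1 and ZEB2, repressors that bind the E-box CACCTG at epithelial promoters, and the microRNAs of the miR-200 family in turn repress ZEB1 and ZEB2. BAF complexes use ATP to slide or evict nucleosomes, and are known above all for keeping distal enhancers open.

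The lists differ in depth, and this bears on every count below. They hold 114291 to 431956 peaks per sample, of which 1412 to 121774 have a −log10 q of at least 5. The files carry no read counts, so the background pileup solved from each list stood in for relative depth, and it ran from 0.0341 to 2.80. In 22RV1 it was 0.633 ± 0.0889 (SD, n = 3) with DMSO and 0.895 ± 0.128 with FHT-1015, without overlap. The means with DMSO and FHT-1015 were 2.15 and 2.16 in DU4475, and 0.227 and 0.224 in HCT116. As a check of the labels, a peak with a −log10 q of at least 5 lay at the gene of EPCAM, an epithelial surface protein, in 3, 3 and 2 of the 3 DMSO samples of 22RV1, DU4475 and HCT116 and in none of the other lines. MYOG, of muscle, had one in all 3 DMSO samples of RD alone, and PTPRC and CD33, of blood cells, in all 3 of MV411 alone. Other markers were not specific to their line or were missing: KLK3 of prostate had none in 22RV1, KRT20 and VIL1 of the gut none in HCT116, CLDN4 and KRT19 none in DU4475, and MYF5 of muscle none in RD. SOX10, MLANA and TYR of pigment cells had at most 1 of 3 in 92-1 or A375. MYOD1 of muscle had 3 of 3 in 22RV1 and HCT116 as well as in RD, SPI1 of blood cells 3 of 3 in 22RV1 and DU4475 as well as in MV411, and VIL1 3 of 3 in 22RV1. The keratin genes KRT8 and KRT18 had 2 and 3 of 3 in A375, and 1 of 3 each in HCT116.

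Most promoters under the regions at transcription starts held the letters CACCTG on either strand, called the ZEB E-box below. RefSeq promoter entries (GRCh38.p14) were matched to the regions by position, with the first entry of each gene, and the 250 bases before the start of 35 protein-coding genes overlapped 35 of them. The promoters below are shown because they hold 5, 3, 1 or 0 copies of the ZEB E-box. Each is the 250 bases before the start, 5′ to 3′ on the strand of the gene, and capitals mark CACCTG or its reverse complement CAGGTG. CRB3 encodes a small Crumbs protein of apical polarity, PTPN6 the tyrosine phosphatase SHP-1, MST1R the receptor of macrophage-stimulating protein, EPHA1 an ephrin receptor, SFN the 14-3-3 protein sigma, and CNKSR1 a scaffold of RAS signalling.
CRB3, chr19:6464021-6464270, plus strand: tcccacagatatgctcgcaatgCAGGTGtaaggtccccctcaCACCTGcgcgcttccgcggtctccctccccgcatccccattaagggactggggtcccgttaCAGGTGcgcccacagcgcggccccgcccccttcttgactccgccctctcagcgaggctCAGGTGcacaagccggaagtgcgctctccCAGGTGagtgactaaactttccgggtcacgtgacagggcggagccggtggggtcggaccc
CD164L2, chr1:27383334-27383583, minus strand: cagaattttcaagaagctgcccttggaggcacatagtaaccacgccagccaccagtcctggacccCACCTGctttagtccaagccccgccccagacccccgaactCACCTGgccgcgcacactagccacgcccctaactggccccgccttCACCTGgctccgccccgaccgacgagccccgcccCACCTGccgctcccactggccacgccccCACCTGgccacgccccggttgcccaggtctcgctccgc
PTPN6, chr12:6946327-6946576, plus strand: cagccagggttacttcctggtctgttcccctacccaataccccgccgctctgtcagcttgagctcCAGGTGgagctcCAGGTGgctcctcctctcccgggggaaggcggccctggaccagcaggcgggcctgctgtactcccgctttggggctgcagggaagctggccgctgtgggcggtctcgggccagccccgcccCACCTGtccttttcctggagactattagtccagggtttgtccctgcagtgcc
MST1R, chr3:49903874-49904123, minus strand: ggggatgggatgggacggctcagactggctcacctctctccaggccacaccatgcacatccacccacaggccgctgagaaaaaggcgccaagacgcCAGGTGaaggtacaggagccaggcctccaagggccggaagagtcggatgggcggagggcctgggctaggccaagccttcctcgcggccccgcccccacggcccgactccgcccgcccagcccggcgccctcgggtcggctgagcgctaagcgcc
EPHA1, chr7:143408857-143409106, minus strand: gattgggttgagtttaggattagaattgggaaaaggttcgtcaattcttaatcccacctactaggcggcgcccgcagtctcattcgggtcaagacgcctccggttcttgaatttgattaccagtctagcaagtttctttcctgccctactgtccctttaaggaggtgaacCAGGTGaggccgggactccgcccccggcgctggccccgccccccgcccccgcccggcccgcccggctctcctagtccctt
SFN, chr1:26862899-26863148, plus strand: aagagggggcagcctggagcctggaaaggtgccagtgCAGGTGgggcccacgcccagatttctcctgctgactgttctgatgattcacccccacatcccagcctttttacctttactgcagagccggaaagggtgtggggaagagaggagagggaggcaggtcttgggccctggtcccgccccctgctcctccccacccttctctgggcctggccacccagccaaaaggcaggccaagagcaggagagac
CNKSR1, chr1:26177241-26177490, plus strand: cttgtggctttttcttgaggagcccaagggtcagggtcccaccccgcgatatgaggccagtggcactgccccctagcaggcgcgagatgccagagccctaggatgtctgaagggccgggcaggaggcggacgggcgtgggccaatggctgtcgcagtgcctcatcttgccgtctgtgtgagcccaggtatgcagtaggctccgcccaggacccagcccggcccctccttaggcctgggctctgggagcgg
CRB3 and CD164L2 each had 5 copies, PTPN6 had 3, MST1R, EPHA1 and SFN had 1, and CNKSR1 had none.

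Of the 35 promoters, 24 (68.6%) held CACCTG on either strand. The share was 14.6% of the 6970 promoters under the other regions of the carcinoma lines and 17.1% of all 15811 promoters. At least 2 copies were found in 9 of the 35 (25.7%), against 1.82% of the promoters under other regions and 2.37% of all. The 35 promoters held 41 copies, at 11 to 234 bases before the start with a median of 100. Inside the open region itself lay 28 of them, at 11 to 185 bases before the start. Within the last 100 bases before the start, 16 of the 35 promoters had a copy (45.7%), against 4.38% and 6.46%. The share was lower the more samples of the other lines had an interval at the promoter. It was 47.8% of 46 promoters under regions with an interval in 3 to 5 of the 12 other DMSO samples, 30.6% of 134 with 6 to 8, 17.8% of 1553 with 9 to 11, and 12.96% of 5269 with all 12. With all entries of a gene in place of the first, 31 of 47 entries under the regions held it (65.96%), against 14.97% of 8733 and 17.1% of 22131. This motif was added to the search after the regions were known. A match is a string of letters and not a bound site, and no binding was measured.

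**Figure D1:**
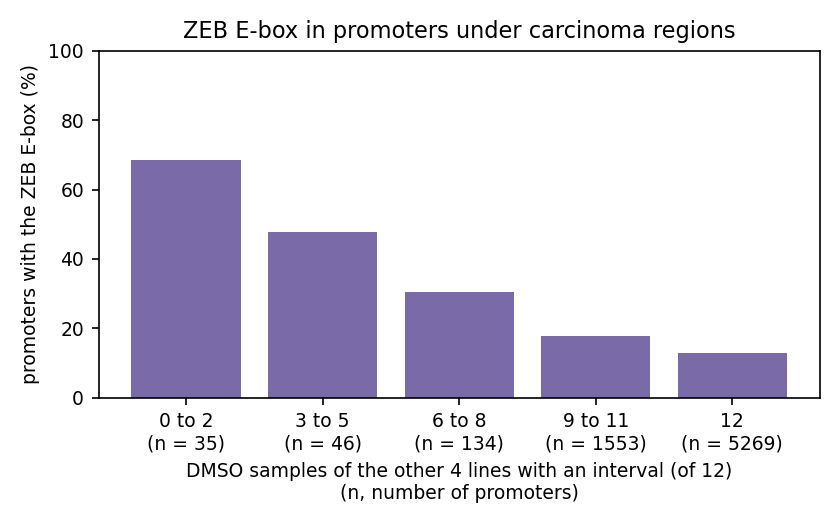
Percent of promoters (250 bases before the start) with the ZEB E-box on either strand (y axis, from 0), for promoters under regions covered in all 9 carcinoma DMSO samples, by the number of the 12 DMSO samples of the other lines with an interval there (x axis). The bar at 0 to 2 samples holds the 35 promoters of the chosen regions and stands at 68.6%, and the bars to its right step down to 12.96%.

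The promoters were close to those under other regions in base composition: the median share of G and C was 66% in the 35, 66.8% in the 6970 and 62.4% in all. The SP/KLF motif GGGCGG was in 77.1% of the 35 and in 77.2% of the promoters under other regions (all promoters, 56.0%). The GRHL motif AACCNGGTT was in 0 of the 35, and it is rare in promoters (0.209% of all). The AP-1 motif TGANTCA was in 3 of 35 (8.57%), against 2.44% under other regions and 5.05% of all, and the ETS motif CCGGAAGT in 1 of 35 (2.86%), against 9.23% and 5.09%. TFAP2 (GCCNNNGGC) was in 12 of 35 (34.3%), against 30.8% and 24.2%. The E-box CAGCTG was in 6 of 35 (17.1%), against 11.8% and 13.3%. The E-box CACGTG was in 3 of 35 (8.57%), against 9.80% and 7.83%. All motifs were searched on both strands, and matches of different motifs may overlap. Promoters with 1 match of the rarer motifs are too few to compare.

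Regions of the set also lay at both clusters of miR-200 genes, noticed after their values were seen. The mature RNAs of the family are printed with the seed, bases 2 to 8, in capitals, since the seed sets which messenger RNAs a microRNA pairs with. The first group shares the seed AAUACUG and the second the seed AACACUG, which differ at 1 base.
hsa-miR-200b-3p: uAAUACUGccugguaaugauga
hsa-miR-200c-3p: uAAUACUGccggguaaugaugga
hsa-miR-429: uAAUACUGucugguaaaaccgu
hsa-miR-200a-3p: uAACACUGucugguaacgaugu
hsa-miR-141-3p: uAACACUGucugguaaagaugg
The hairpins of MIR200B and MIR429 lie at chr1:1167104-1167198 and chr1:1169005-1169087, and those of MIR200C and MIR141 at chr12:6963699-6963766 and chr12:6964097-6964191, all on the plus strand.

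The region chr12:6962998-6963311 ended 0.388 kb before the MIR200C hairpin. It had an interval in none of the 12 DMSO and none of the 12 FHT-1015 samples of the other lines, and in all 9 FHT-1015 samples of the carcinoma lines. The strength of a peak is given as its percentile by −log10 p within its own list (100 is the strongest, 0 means no interval). The lists differ in length, so a higher or lower percentile in another sample does not by itself show a change at the region. With DMSO this region stood at 97.2, 96.3 and 86.6 in 22RV1, at 93.2, 89.4 and 93.9 in DU4475, and at 89.0, 96.7 and 92.3 in HCT116. With FHT-1015 it stood at 98.3, 97.6 and 98.0 in 22RV1, at 93.8, 94.4 and 93.9 in DU4475, and at 88.9, 31.3 and 97.5 in HCT116, so that only 1 HCT116 sample was low. The region over the PTPN6 start, chr12:6946125-6946735, lies 16.96 kb from the same hairpin and was the widest of the set (611 bp). PTPN6 is known to be read from an epithelial promoter and from a separate one of blood cells. Its region had no interval in any of the 24 samples of the other lines, MV411 included, and stood between 94.1 and 99.6 with DMSO and between 94.3 and 99.5 with FHT-1015.

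The region chr1:1162683-1162894 lies 4.21 kb from the MIR200B hairpin and lost its calls with FHT-1015 in 22RV1, the line where it was weakest with DMSO. In 22RV1 it stood at 82.2, 49.7 and 82.6 with DMSO and had no interval in any of the 3 FHT-1015 samples. In DU4475 it stood at 96.5, 97.2 and 97.6 with DMSO and at 97.4, 97.4 and 97.4 with FHT-1015. In HCT116 it stood at 98.9, 95.8 and 98.5 and then at 95.5, 97.0 and 98.5. In 22RV1 the calls went from 3 of 3 samples to 0 of 3, and in DU4475 and HCT116 they stayed at 3 of 3. In 92-1 the region had an interval in 0 of 3 DMSO and 2 of 3 FHT-1015 samples. Across the set, 10 of the 217 regions on chromosomes with a microRNA entry lay within 10 kb of one (4.61%), against 3.67% of all regions, so that closeness to microRNA genes as such was near the background.

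The regions were narrow and often far from a transcription start. Their width ran from 100 to 611 bp with a median of 174 bp, against 251 bp in the 13707 other regions covered in all 9 carcinoma DMSO samples. Within 1 kb of a gene end lay 76 of the 229 (33.2%), against 71.5% of the others and 84.5% of the 8031 regions open in all 12 other samples. Here a gene end is any transcription start that the RefSeq promoter table gives, and either end of the gene where it gives none, which held for 26 of the 76. With only the first start listed for a gene the number was 68. The remaining 153, called distal below, lay a median of 27.9 kb from a gene end, and 81 of them were inside a gene. In all, 143 of the 229 (62.4%) overlapped a gene, against 75.4% of the others. More than 100 kb from a gene end lay 27 regions (11.8%), against 4.87% of the others. Their median percentile with DMSO was 89.9, below the 95.5 of the other regions. These are descriptions of a set picked for being open in some lines and closed in others, and weak peaks are missed more often.

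The set has soft edges. No other DMSO sample had an interval at 72 regions, 1 had one at 79 and 2 had one at 78, while a further 119 regions had exactly 3 and were left out. In width, 10 regions passed the minimum by less than 10 bp, and 8 stretches fell short of it by at most 10 bp. Leaving out 1 of the 9 carcinoma samples gave 237 to 295 regions, with the highest number without HCT116 DMSO replicate 1. Neighbouring regions can belong to 1 element: 5 lay within 1 kb of another of the set. Chromosome 16 held 8.30% of the set against 4.33% of all regions, and chromosome X 1 region (0.437% against 2.49%).

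Genes of the epithelium were well represented. Across all 19970 protein-coding genes 249, or 1.25%, had a region of the set inside them or within 10 kb. Of 59 genes on a list of epithelial genes, 12 (20.3%) did: CDH1, CDH3, CLDN7, DSP, ELF3, ESRP1, ESRP2, EVPL, GRHL2, KRT8, MARVELD3 and PPL. CDH1 and CDH3 share 1 region, so the 12 genes stand for 11 regions. None of 24 mesenchymal genes, 14 WNT targets or 13 targets of YAP and TEAD had one. With any of the 13936 regions in place of the set, the shares were 79.7% of epithelial, 41.7% of mesenchymal and 92.3% of YAP and TEAD genes, 7 of the 14 WNT targets, and 61.9% of all genes. The lists were drawn up with results of these data known, and the regions were chosen for being open in carcinoma lines, so the counts describe the set and are no test.

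CDH1 encodes E-cadherin, the adhesion protein of adherens junctions, and its region chr16:68737100-68737392 lies inside the gene. With DMSO it stood at percentiles 95.5, 95.9 and 96.4 in 22RV1, 90.9, 91.9 and 91.5 in DU4475, and 95.6, 96.1 and 98.9 in HCT116. With FHT-1015 it stood at 98.9, 97.7 and 98.3, at 92.5, 93.0 and 91.4, and at 91.3, 93.2 and 90.2. The region was called in all 18 samples. Of the 24 samples of the other lines, 1 with DMSO and 2 with FHT-1015 had an interval there.

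Tight junction and desmosome genes followed. The CLDN7 region, inside the gene of a claudin and 2 bp from 1 of its starts, stood between 77.4 and 98.0 with DMSO (median 88.9) and between 74.9 and 96.7 with FHT-1015 (median 90.8). MARVELD3, a membrane protein of tight junctions, had a region 0.019 kb from the gene, with medians of 89.98 and 87.2. PPL and EVPL encode periplakin and envoplakin, which link desmosomes to keratins. Their regions lay 0.013 and 0.021 kb from the genes, with medians of 93.3 and 84.7 with DMSO and 95.02 and 86.7 with FHT-1015. DSP encodes desmoplakin. Its region, 1457 bp from the start, was called in 8 of 9 FHT-1015 samples, the exception being a sample of 22RV1. The KRT8 region, inside the gene as mapped and 21.2 kb from a start listed for it, had an interval in no sample of the other lines. Its medians were 89.2 and 94.1. This holds for the region and not for the whole gene. A peak with a −log10 q of at least 5 lay at KRT8 in 2 of 3 DMSO samples of A375 and 1 of 3 of HCT116. KRT8 is a keratin of simple epithelia.

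Among the regulators, ESRP1 had the region with the highest median of the list. ESRP1 and ESRP2 direct epithelial splicing. The ESRP1 region, 476 bp wide, stood between 96.1 and 99.2 with DMSO and between 97.5 and 99.2 with FHT-1015, and the ESRP2 region between 89.8 and 96.2 and between 87.6 and 96.5. GRHL2 is a transcription factor of epithelial cells, and its region had medians of 91.9 and 93.998. ELF3 is an ETS factor of epithelia, and its region lay 5.96 kb from the gene. In 22RV1 it stood at 92.3, 84.4 and 90.4 with DMSO and at 8.55, 34.5 and 71.2 with FHT-1015, all below the DMSO samples. In DU4475 it stood at 89.0, 88.6 and 90.1 and then at 88.0, 84.2 and 84.1. In HCT116 1 DMSO sample was at 2.87 and the others at 94.2 and 93.6, and with FHT-1015 it stood at 23.4, 74.9 and 85.9, so the groups overlapped. Of the 11 epithelial regions, 10 had an interval in all 9 FHT-1015 samples, as did 45.4% of the set and 83.7% of all 13936 regions.

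**Figure D2:**
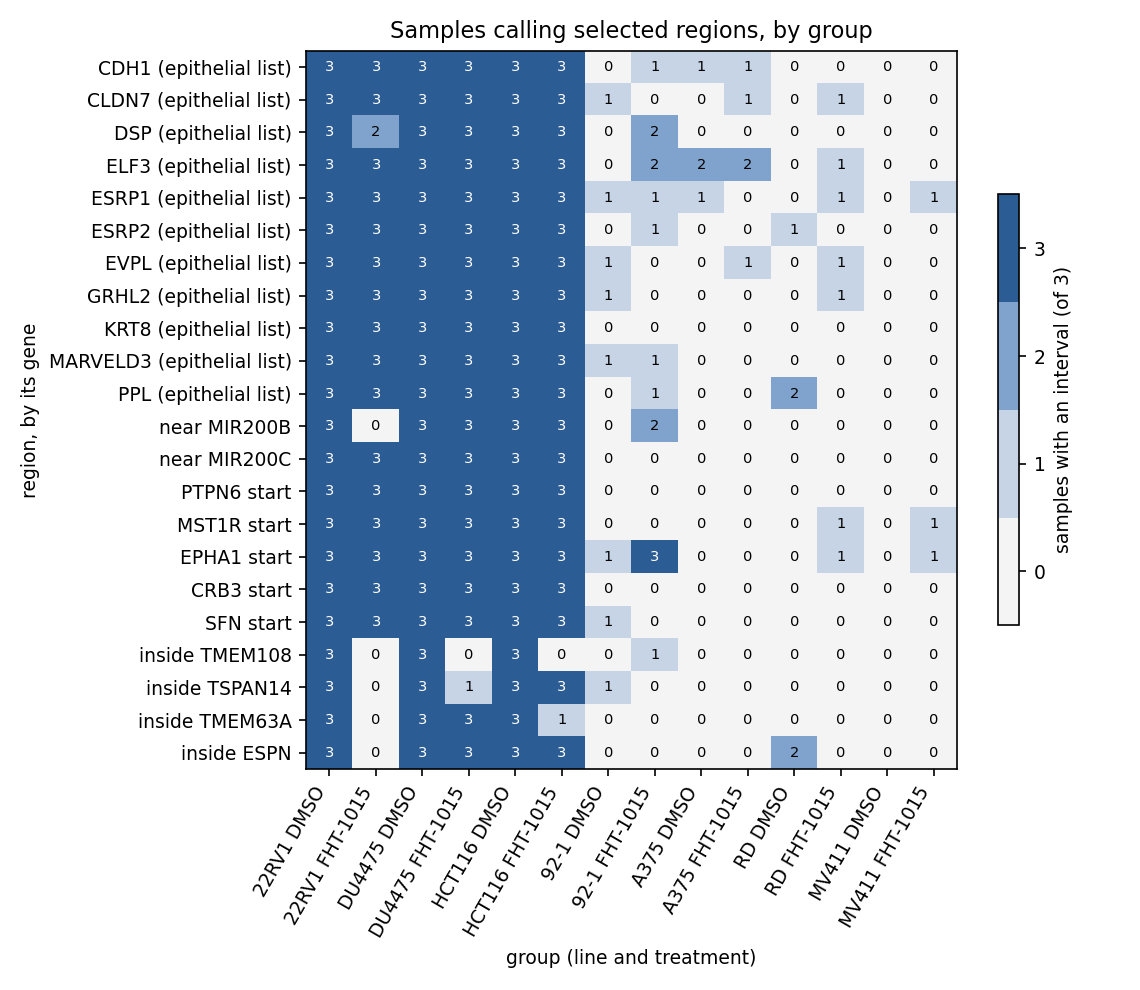
Number of samples (0 to 3, printed and shaded) with an interval at selected regions (y axis, named by gene) in each of the 14 groups of line and treatment (x axis). The first 11 lines are the epithelial list, the next 7 are regions near miR-200 genes and at the starts of 5 genes, and the last 4 were picked from the regions without an interval in the FHT-1015 samples of 22RV1. DMSO columns of the carcinoma lines are 3 by choice of the regions. TMEM108 is 0 with FHT-1015 in all 3 carcinoma lines.

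The highest median percentile with DMSO, 99.7, belonged to chr7:144195435-144195935 at the start of ARHGEF35. That gene has near-identical copies nearby, so reads there may be split between copies and the value is uncertain. High medians were also found for a region 25.6 kb from MATN1 (99.1), one inside FHIT (98.97) and 2 neighbouring regions about 70 kb from WDR11 (98.5 and 98.1). The 2 at WDR11 had the same percentile in every carcinoma sample but HCT116 DMSO replicate 3 and 22RV1 FHT-1015 replicate 3. Their values are therefore not separate observations. The FHIT region, chr3:61250004-61250302, lies 1.15 kb from a start of the gene and had an interval in none of the 24 samples of the other lines. It stood at 99.5, 99.6 and 99.3 with DMSO and at 99.8, 99.7 and 99.7 with FHT-1015 in 22RV1. A region 16.3 kb from DLL1, a ligand of NOTCH receptors, had a median of 98.2 with DMSO and 89.7 with FHT-1015. In 22RV1 it stood at 99.1, 98.9 and 98.6 with DMSO and at 94.2, 89.7 and 81.0 with FHT-1015. A region inside ITGAE, an integrin subunit that binds E-cadherin, had a median of 97.5 with DMSO. With FHT-1015 the 6 strongest included ESRP1, PTPN6 and a region at KIFC2 and FOXH1 (97.2). No gene had more than 2 regions. PEX16, LARGE2 and PHF21A share 2, TSC2 and PKD1 share 2, and PTPN6, ITGAE, MBP and JAKMIP1 had 2 each.

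The effect of FHT-1015 was measured on samples that had no part in the choice. The choice was repeated 3 times, each time without the DMSO samples of 1 replicate number and with at most 1 of the 8 remaining samples of the other lines, which gave 347, 323 and 294 regions. Each DMSO sample was then scored on the regions chosen without it, and each FHT-1015 sample on all 3 choices, averaged. The mean called share was lower with FHT-1015 in all 3 lines, and the fall over the lines together passed the test.

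In 22RV1, 92.5, 94.7 and 94.6% of the regions were called in the DMSO samples and 74.8, 77.2 and 77.0% in the FHT-1015 samples. The means were 93.9 ± 1.24% and 76.3 ± 1.35% (SD, n = 3), a difference of -17.6 percentage points, without overlap. In DU4475 the DMSO samples called 95.1, 91.3 and 88.8% and the FHT-1015 samples 86.5, 88.4 and 82.1%. The difference was -6.09 points, without overlap and with a gap of under 1 point between the groups. Under the alternatives it ran from -2.05 points (regions of at least 200 bp) to -11.5 points (strict peaks, with −log10 q of at least 5). In HCT116 the DMSO samples called 77.2, 81.1 and 84.7% and the FHT-1015 samples 74.6, 80.2 and 70.4%, a difference of -5.97 points with overlapping groups. Averaged over the 3 lines the difference was -9.89 points, and a two-sided exact permutation test that exchanged samples within lines gave p = 0.001. Exact means here and below that every exchange was counted. The finished scores were exchanged, and the choice of regions was not repeated for each exchange. Within 1 line 3 samples against 3 cannot go below 0.1, and the exact p was 0.1, 0.1 and 0.2 (adjusted over the 3 lines: 0.15, 0.15 and 0.2).

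Regions that the carcinoma lines share with the other lines lost less. Scored the same way, the called share of those regions went from 98.3 to 95.8% in 22RV1, from 97.4 to 95.8% in DU4475 and from 93.5 to 93.7% in HCT116. The effect of FHT-1015 on the carcinoma regions exceeded that on the shared regions by -8.56 points (exact permutation test, p = 0.00025, the smallest that 8000 assignments allow). Among distal regions only, the difference between the sets was -8.76 points. In the full choice the shared regions had a higher median percentile with DMSO, 95.5 against 89.9. They were also wider, with a median of 251 against 174 bp. Their called share with DMSO was higher in each line, as in HCT116 at 93.5 against 81.0%. The part of this in the result was not tested. Differences between lines did not pass: 22RV1 against DU4475 gave -11.5 points and 22RV1 against HCT116 -11.6 points (exact permutation p = 0.18 and 0.185, adjusted 0.278 for both), and DU4475 against HCT116 -0.12 points (p = 0.98). The fall rested in part on 22RV1, as it was -6.03 points over DU4475 and HCT116 alone (exact permutation p = 0.02). The excess over the shared regions was then -5.32 points. With pileups thinned to a common background the mean difference was -17.3 points (exact p = 0.0113), and in 22RV1 alone it was -36.2 points. With only peaks of −log10 q of at least 5 it was -16.1 points (exact p = 0.006). Such lists were shorter with FHT-1015 in 22RV1 and DU4475, without overlap of the groups. In 22RV1 strict peaks went from a mean of 67852 to 40206, and thinned peaks per sample from at least 90835 to at most 64696. In DU4475 strict peaks went from a mean of 54756 to 40501, and thinned peaks from at least 56476 to at most 54143. Shared regions also fell more in 22RV1, from 95.5 to 87.0% after thinning and from 93.5 to 87.0% with strict peaks. In DU4475 they went from 90.6 to 87.3% and from 89.8 to 85.7%, with overlapping groups. In HCT116 their share rose, by 1.19 and 2.85 points. For the 3 lines the excess over shared regions was -13.8 and -13.5 points. The part of list length in these falls was not tested.

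**Figure D3:**
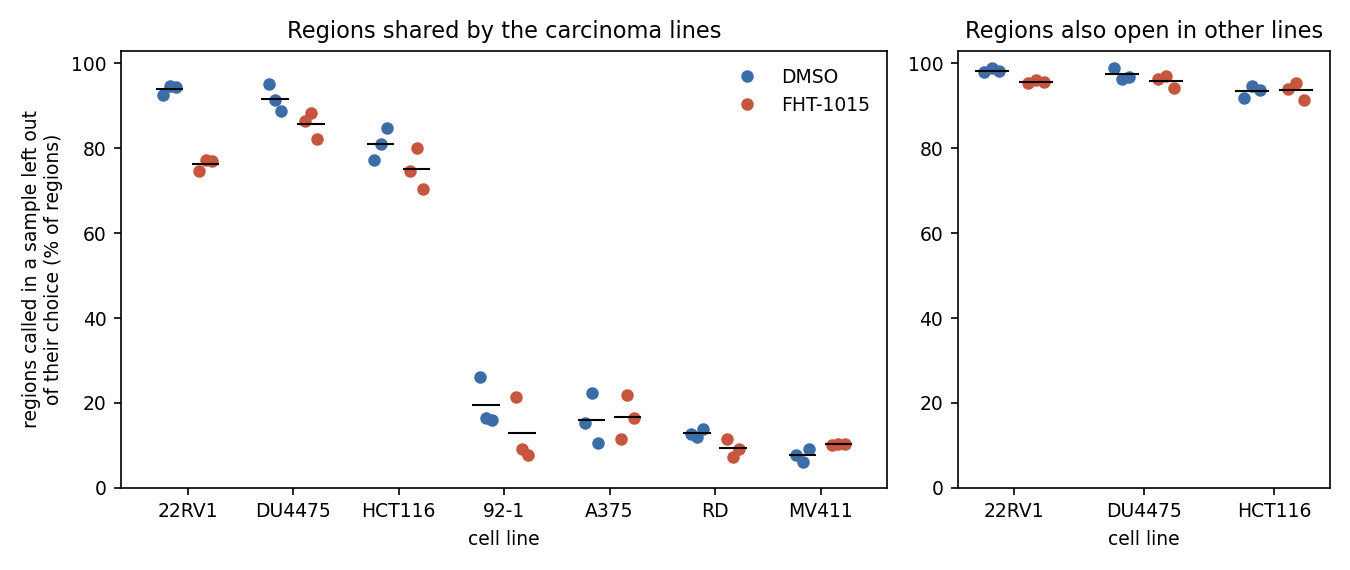
Percent of regions with an interval (y axis) in samples left out of their choice, by line (x axis), for DMSO (blue) and FHT-1015 (red). Points are samples, spread sideways for legibility, and bars are means of 3. At left the regions chosen for the carcinoma lines, where 22RV1 goes from 93.9 to 76.3%. At right carcinoma regions that are also open in other lines, where all samples lie above 90%.

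The effect was larger on distal regions than on those at gene ends. In 22RV1 the called share of distal regions was 91.2, 93.6 and 93.2% with DMSO and 70.6, 72.8 and 71.01% with FHT-1015. Regions within 1 kb of a gene end were called at 95.9, 97.7 and 98.6% with DMSO and at 85.9, 88.8 and 93.5% with FHT-1015. In DU4475 the distal mean went from 89.5 to 82.02%, without overlap, and the gene-end mean from 97.9 to 95.5%, with overlap. In HCT116 the distal mean went from 78.99 to 70.7% and the gene-end mean from 86.5 to 86.99%, both with overlapping groups. The effect on distal regions exceeded that on gene-end regions by -9.00 points over the 3 lines (exact permutation test, p = 0.00025). Distal regions were also the weaker ones with DMSO, with a median percentile of 88.8 against 91.3, and the part of this in the result was not tested.

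**Figure D4:**
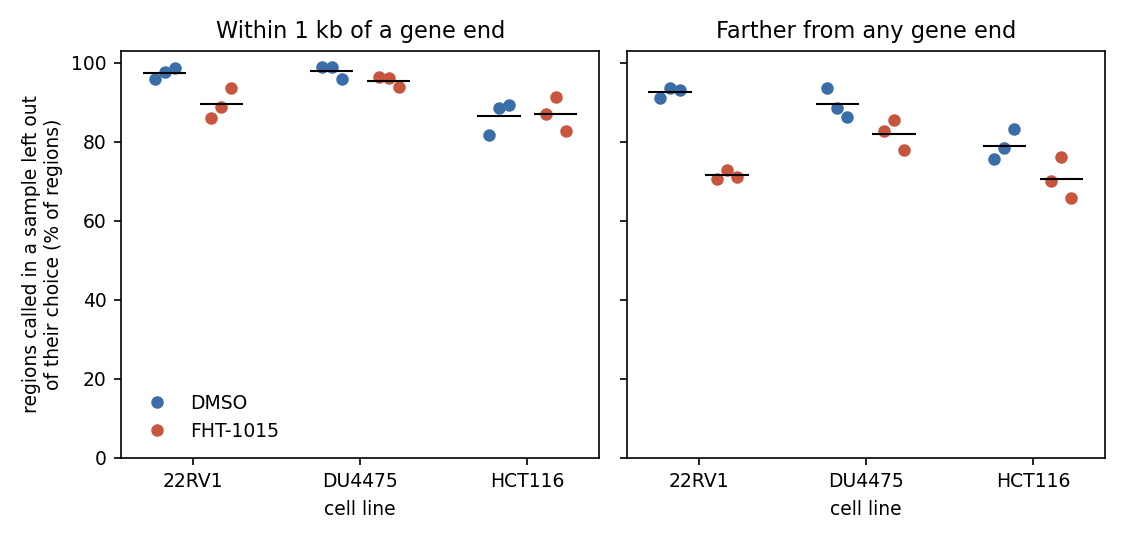
Percent of regions with an interval (y axis) in samples left out of their choice, for regions within 1 kb of a gene end (left) and farther away (right), in the 3 carcinoma lines (x axis), with DMSO (blue) and FHT-1015 (red). Points are samples and bars are means of 3. The distal share in 22RV1 goes from 92.7 to 71.5%, the gene-end share from 97.4 to 89.4%.

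For the 229 regions themselves the DMSO calls are fixed by the choice, so their FHT-1015 calls are given as a description. All 9 FHT-1015 samples of the carcinoma lines had an interval at 104 (45.4%), where 83.7% of all 13936 regions did. Of the 76 gene-end regions 50 (65.8%) did, and of the 153 distal ones 54 (35.3%). Another 36 were called in 8 samples and 32 in 7, and 13 were called in at most 4. Of the 35 regions over promoters printed or counted above, 24 were called in all 9 and the other 11 in 6 to 8.

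**Figure D5:**
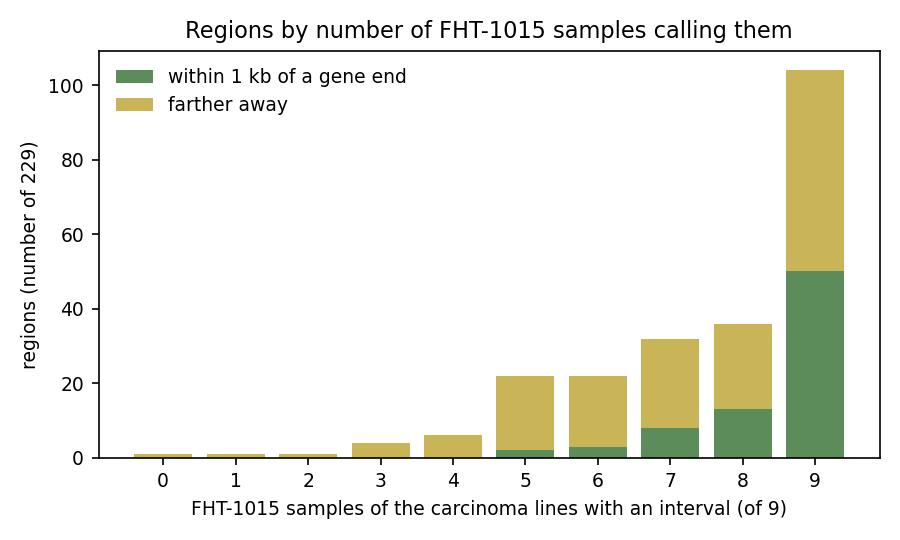
Number of regions (y axis, of 229) by how many of the 9 FHT-1015 samples of the carcinoma lines had an interval there (x axis), split into regions within 1 kb of a gene end (green) and farther away (yellow). The bar at 9 holds 104 regions, 50 of them at gene ends, and the bars at 4 and below hold distal regions only.

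No interval in any of the 3 FHT-1015 samples of a line was found for 18 regions in 22RV1 (7.86%, Wilson 95% interval 5.03 to 12.1%), 6 in DU4475 (2.62%, 1.21 to 5.597%) and 10 in HCT116 (4.37%, 2.39 to 7.85%). The intervals cover counting error only. Among all 13936 regions the shares were 0.696%, 0.481% and 0.395%. Among all regions covered in the 3 DMSO samples of the line itself (67653, 49202 and 27865 regions), shared between lines or not, they were 18.3%, 7.22% and 5.23%. The shares of the set lay above those of all shared regions in each line. They lay below those of the line's own regions in 22RV1 and DU4475 and near it in HCT116, and no test was made of either. All 18 in 22RV1 and all 6 in DU4475 were distal, as were 9 of the 10 in HCT116, where 153 of the 229 were distal. With peaks of −log10 q of at least 5 the shares were 21.8% in 22RV1, 5.10% in DU4475 and 9.52% in HCT116. Gene-end regions were then 6 of the 39 lost in 22RV1, 2 of the 8 in DU4475 and 0 of the 8 in HCT116. With calls of at least 100 bp the shares lost were 11.8%, 4.37% and 7.42%. Among the 84 regions of at least 200 bp they were 5.95% in 22RV1, 0% in DU4475 and 1.19% in HCT116.

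Of the 30 regions lost in at least 1 line, 27 were lost in 1 line and 3 in more, and among all 13936 regions the numbers were 196 and 11. In 22RV1 alone 15 were lost, in HCT116 alone 7, in DU4475 alone 5, in 22RV1 and HCT116 2, and in all 3 lines 1. The one lost in all 3, chr3:133383259-133383427 inside TMEM108, stood at 88.6, 88.0 and 87.9 with DMSO in 22RV1, at 82.0, 80.5 and 27.6 in DU4475 and at 83.5, 98.0 and 94.3 in HCT116. No FHT-1015 sample of these lines had an interval there, and 1 of 12 of the other lines did. The pair lost in 22RV1 and HCT116 lay 25.8 kb from SGMS1, a sphingomyelin synthase, and 39.9 kb from PUM2, an RNA-binding protein.

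Among the regions lost in 22RV1, picked here after their values were seen, was one inside TSPAN14, a tetraspanin. It stood at 95.8, 96.2 and 95.004 with DMSO in 22RV1 and had no interval with FHT-1015. It was called in 1 of 3 FHT-1015 samples of DU4475 and in all 3 of HCT116, at 59.2, 20.4 and 84.5 against 95.6, 97.3 and 95.7 with DMSO. One inside ESPN, an actin-bundling protein of microvilli and stereocilia, stood at 38.8, 88.8 and 42.2 with DMSO in 22RV1. It was called in all 6 FHT-1015 samples of DU4475 and HCT116, and in 2 of 3 DMSO samples of RD. A region inside TMEM63A stood at 85.4, 78.9 and 83.9 with DMSO in 22RV1. It was called in all 3 FHT-1015 samples of DU4475, at 88.6, 87.3 and 85.5, and in 1 of HCT116. The one X-linked region, 75.4 kb from BCOR, was lost in 22RV1 and kept in DU4475, at 99.6, 99.6 and 99.8. In HCT116 the lost regions included the one gene-end case, 0.046 kb from TNS4, a tensin of epithelial cells, and one 13.9 kb from TBX3, a T-box factor. In DU4475 they included one inside PPIC, at 65.6, 68.7 and 28.6 with DMSO there. Another, 1.35 kb from SLC5A9, stood at 69.3, 27.8 and 72.9 with DMSO in DU4475.

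The calls in the other 4 lines were limited by the choice. Between 22 (MV411) and 72 (92-1) of the 229 had an interval in at least 1 DMSO sample of a line, none in all 3. With FHT-1015, 79 of the 229 had an interval in none of the 12 samples and 195 in at most 2. All 3 FHT-1015 samples of a line called 2 regions in 92-1, 6 in A375, 0 in RD and 6 in MV411. Of the regions without a call in the DMSO samples of the line, all 3 FHT-1015 samples called 1 of 157 in 92-1, 4 of 167 in A375, 0 of 182 in RD and 3 of 207 in MV411. The share was 0.919%, 4.09%, 0.475% and 2.33% of all such regions covered in the carcinoma DMSO samples, so the shares of the set were no higher than the background. The regions with the most calls, 8 of 12, were at C1orf116 (13.2 kb) and DAGLA (0.761 kb). On the held-out choices, the called share went from 19.5 to 12.8% in 92-1, from 16.0 to 16.6% in A375, from 12.9 to 9.28% in RD and from 7.72 to 10.2% in MV411. The mean difference over the 4 lines was -1.80 points and did not pass (exact permutation test, p = 0.345), and its sign turned among the 50000 strongest peaks of each list (1.02 points, exact p = 0.0313) and after thinning (0.10 points, exact p = 0.907, without 92-1).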

How the data were processed

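Peak lists of 42 ATAC-seq samples, 1 per sample and not pooled, were analysed. Per the submitters' processing notes, the tools included Bowtie2, Picard, MACS2, limma and HOMER and the build hg38. Not given in the sources used here were their settings and whether reads were shifted for transposase cuts. The deposited fold enrichment, −log10 p, −log10 q and score of a peak are the authors' values, and served only to rank or select peaks of the same list; the score was unused. The lists keep weak peaks, so a missing call is no proof of closed chromatin. Peak names in 22RV1, HCT116, 92-1 and MV411 hold the word small, with no meaning stated, and treatments were compared within lines.

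The lists were read with Python 3.11.15, NumPy 2.4.6, pandas 2.3.3 and SciPy 1.17.1. Regions, coordinates (from 1, hg38) and calls (overlap of at least 1 bp) were built as the text says, on chromosomes 1 to 22 and X. Genes, starts, promoters and microRNAs are from RefSeq tables of GRCh38.p14: 19970 protein-coding genes, 15811 of them with 1 or more starts. Distances to a gene end are to the nearest start of any gene, or to either end of a gene without a listed start. Distances from a named gene are to the gene itself, unless a start is named. Promoters are the first entry of a gene. The regions and gene lists were chosen with earlier results of these data known. Differences in the called share were tested with two-sided exact permutation tests over samples within lines (threshold 0.05), Benjamini-Hochberg adjusted within families, after the steps were tested on simulated data. Depth is unknown, since the lists hold no read counts. A whole-number pileup and a background were solved from fold and p of each peak (tolerance 0.01 on −log10 p). For the thinned alternative, pileups were drawn down to a common background within a line, with a new threshold of 5 on −log10 p; 92-1 was not thinned, as a background there was under 0.1. No 2 lists of a line shared more than 6.37% of their intervals exactly.

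Regions were named by rule: the 8 strongest with DMSO, the 6 strongest with FHT-1015 among those called in all 9, those lost in all 9, those at listed epithelial genes, and the 8 genes with the most regions (9 tied at 2 are named); PTPN6 and others at promoters, the miR-200 regions and those lost in 1 line were added after their values were seen. Correlations gave no sign that replicate numbers pair samples. Same-numbered DMSO and FHT-1015 samples correlated at -0.0523 to 0.0422 over 9 pairs, and the other pairs of a line at -0.0525 to 0.0576. Such values cannot show whether same-numbered samples were handled together, and the labels do not say. Alternatives were strict or strongest peaks, thinning, overlap, width, number of other samples, gene-end distance, the replicate block and each sample left out. Distal sequence was not analysed here.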

Additional observations from a re-analysis of the deposited data

Results flagged for a closer look

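The effect of FHT-1015 on the called share of held-out regions went in opposite directions, without overlap of the groups, in MV411 and in 3 other lines. It was 2.52 points in MV411, -17.6 in 22RV1, -6.09 in DU4475 and -3.62 in RD. The effect in 22RV1 minus that in MV411 was -20.13 points. In DU4475 minus MV411 it was -8.607 points, and in RD minus MV411 it was -6.136 points. The pairs were picked for their opposite directions, so these differences were not tested. In MV411 the background was 0.453 with DMSO and 0.266 with FHT-1015. With pileups thinned to a common background the share in MV411 went from 2.96 to 5.99%, a difference of 3.02 points without overlap. With strict peaks the difference in MV411 was -0.217 points, with overlap. In RD the groups overlapped with the 50000 strongest peaks (0.786 points), with no other DMSO sample allowed (-0.616 points) and with calls of at least 100 bp (-2.52 points).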

How the results depend on the processing

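The fall over the 3 carcinoma lines, its excess over shared regions and the excess of distal over gene-end regions kept their direction and stayed past the threshold under all alternatives run. With 1 sample left out these were -10.7 to -9.11, -9.12 to -8.00 and -9.47 to -8.24 points, and the last was -9.47 with only the first start of a gene. Within single lines the ranges were -18.3 to -16.8 (22RV1), -7.57 to -4.32 (DU4475) and -8.53 to -3.62 (HCT116), and over the other 4 lines -2.88 to -0.963. Values in single lines moved by over 1.5 times in 22RV1 with strict peaks (-32.6) and thinning (-36.2), in DU4475 with the 50000 strongest peaks (-2.57), regions of at least 200 bp (-2.05), strict peaks (-11.5) and thinning (-9.51), and in HCT116 with no other DMSO sample allowed (-9.003). With the replicate block the fall over the 3 lines is again -9.89 points, and the exact p of the 3 main differences was 0.00391, the smallest that pairing allows, and no call changed. Line differences from 22RV1 ranged from -13.3 to -10.0 (DU4475) and from -14.0 to -9.09 (HCT116) with 1 sample left out, and were -21.1 and -28.5 with strict peaks, -26.7 and -29.9 with thinning and -18.6 and -16.9 with the 50000 strongest peaks. DU4475 minus HCT116 was -7.32 with strict peaks, -3.22 with thinning and -2.21 with calls of 100 bp. DU4475 minus HCT116 changed sign with the 50000 strongest peaks (1.72), regions of at least 200 bp (3.68) and no other DMSO sample allowed (1.42), and with 1 sample left out it ran from -2.46 to 2.44, positive without DU4475 DMSO replicate 1 (1.56) or FHT-1015 replicate 3 (1.65) and without HCT116 DMSO replicate 1 (1.77) or FHT-1015 replicate 2 (2.44); the cause was not tested. The difference over the other 4 lines turned to 1.02 with the 50000 strongest peaks and to 0.0958 with thinning. Shares of lost regions moved to 21.8% in 22RV1, 5.10% in DU4475 and 9.52% in HCT116 with strict peaks. With calls of 100 bp they were 11.8%, 4.37% and 7.42%, and at 200 bp or more 5.95%, 0% and 1.19%. Depth is unknown, so weak regions may be missed in any sample.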
